A study of Mus musculus with 1814 samples.

Results

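The interferon response genes described here are 40 genes that cells switch on when interferon reaches them. They were chosen by their values, because earlier inspection of these data showed the response to be higher in KO and TA than in WT germinal center B cells. All 40 were present among the 15177 genes of the genotype table and the 25125 genes of the combined table of the other experiments. The cells were mouse germinal center B cells, index-sorted 1 per well into 96-well plates and read with SmartSeq2, which covers whole transcripts but marks no single molecules. The genotype experiment held Dec-positive (Dec+) cells labelled KO, TA or WT, with no time given, on 4 plates that each carried all conditions. In the dark zone, where germinal center B cells divide and mutate their antibody genes, 62 KO cells, 26, 26, 24 and 25 TA cells on plates 1 to 4, and 82 WT cells were kept. In the light zone, where the cells are selected, 61 KO, 22 TA and 41 WT cells were kept. The other experiments, numbered 1, 3 and 4, held Dec+ cells of both zones between 12 and 60 h, and experiment 1 also held 80 Dec-negative (Dec-) light zone cells of 12 h. The labels give no genotype for these experiments, do not say what Dec marks, and name neither the alteration in KO and TA nor any animal, age or sex. The genotype plates bear the name Ccnd3, the gene of cyclin D3, a partner of the kinases that drive cells through G1.

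Interferons are secreted proteins that signal infection to neighbouring cells. Type I interferons act through Ifnar1 and Ifnar2 and the kinases Jak1 and Tyk2, and lead to a complex with Stat2 and Irf9 that binds the interferon-stimulated response element (ISRE) of target promoters. Interferon gamma acts through Ifngr1 and Ifngr2 with Jak1 and Jak2, and acts on promoters through the gamma-activated sequence (GAS), inducing Irf1. The target genes encode sensors of foreign RNA and DNA, proteins that block viral replication, GTPases that attack the vacuoles of intracellular microbes, and enzymes that attach or remove the ubiquitin-like protein Isg15.

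The promoters of the members often carried these elements. RefSeq promoter windows of 300 bases (250 upstream of the start and the rest downstream, build GRCm38.p6) were matched for 31 of the 40 members. The ISRE core, 2 copies of TTTC with any 2 bases between them, on either strand, was present in 19 of these 31 genes (61.3%), against 3.99% of the 27025 genes with a window and 3.44% of all 32851 windows. The GAS core TTCNNNGAA, which reads the same on both strands, was present in 9 of the 31 (29.03%), against 9.55% of all genes and 8.30% of all windows, and 7 members held both. Shown are the windows of Trim30a, Irgm1 and Igtp, members with an ISRE core and high counts, and of Ifi209, the member with the most counts of all, whose window held neither core. Capitals mark the cores, and each sequence runs from 5′ to 3′ on the strand of its gene. Trim30a lies at chr7:104465144-104465443, minus strand, Irgm1 at chr11:48871371-48871670, minus strand, Igtp at chr11:58199306-58199605, plus strand, and Ifi209 at chr1:173630609-173630908, plus strand. Trim30a held 1 ISRE core, Irgm1 held 2 that overlap, and Igtp held 1 ISRE and 1 GAS core.
Trim30a: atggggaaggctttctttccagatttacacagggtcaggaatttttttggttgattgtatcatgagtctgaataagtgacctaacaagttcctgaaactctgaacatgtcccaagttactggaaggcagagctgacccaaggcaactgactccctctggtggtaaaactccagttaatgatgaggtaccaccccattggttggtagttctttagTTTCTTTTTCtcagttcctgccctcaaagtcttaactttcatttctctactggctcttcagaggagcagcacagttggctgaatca
Irgm1: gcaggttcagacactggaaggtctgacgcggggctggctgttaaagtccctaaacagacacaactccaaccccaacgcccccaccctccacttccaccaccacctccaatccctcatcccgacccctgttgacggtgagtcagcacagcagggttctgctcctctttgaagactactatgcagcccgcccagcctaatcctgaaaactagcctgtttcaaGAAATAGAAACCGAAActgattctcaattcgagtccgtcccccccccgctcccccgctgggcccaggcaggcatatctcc
Igtp: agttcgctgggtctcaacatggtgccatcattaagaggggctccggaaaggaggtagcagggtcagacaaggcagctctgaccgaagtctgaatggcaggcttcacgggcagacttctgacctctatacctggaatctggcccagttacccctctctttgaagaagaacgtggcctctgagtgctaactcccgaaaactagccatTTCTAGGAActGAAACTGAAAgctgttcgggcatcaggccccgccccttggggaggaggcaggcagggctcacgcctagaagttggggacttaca
Ifi209: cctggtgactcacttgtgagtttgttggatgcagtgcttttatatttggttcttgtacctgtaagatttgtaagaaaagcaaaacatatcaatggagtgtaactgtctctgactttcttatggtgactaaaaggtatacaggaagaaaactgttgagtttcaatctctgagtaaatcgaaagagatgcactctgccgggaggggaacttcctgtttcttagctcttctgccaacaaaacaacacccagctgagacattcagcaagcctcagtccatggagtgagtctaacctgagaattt

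Median counts per cell lay between 128143 and 179581 in the 6 genotype groups. The median share of mitochondrial counts was 10.8, 5.94 and 6.93% in KO, TA and WT dark zone cells, and 10.4, 5.43 and 6.52% in their light zone cells. Ccnd3 stood at 89.3, 287.3 and 477 counts per 1000000 counts (CPM) in KO, TA and WT dark zone cells, and still had reads in 21 of 62 KO cells. All 10 germinal center B cell markers had reads in each group. The 17 T cell markers measured summed to 706, 164.2 and 153.8 CPM in KO, TA and WT dark zone cells, with 1, 3 and 4 of them at 0, and to 332.5, 165.7 and 242.7 CPM in the light zone, with 1, 15 and 14 at 0. The 7 plasma cell markers summed to 6189, 2487 and 3149 CPM in KO, TA and WT dark zone cells and to 3967, 1549 and 1880.2 CPM in the light zone, and the 5 myeloid markers measured to 147.4, 170.7 and 138.4 CPM and 394, 144.9 and 176.3 CPM. T cell and plasma cell markers were thus higher in KO than in WT in both zones and myeloid markers in the light zone. The part of plasma and myeloid cells in the KO values given next was not tested.

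In both zones the KO cells carried more interferon response transcripts than the WT cells, and in the dark zone the TA cells did too. The 40 members summed to 2821, 2680.2 and 1707 CPM in KO, TA and WT dark zone cells, and to 3187, 1899.5 and 1617 CPM in KO, TA and WT light zone cells. The median cell held 1881, 1618 and 1411 CPM of member counts in the dark zone of KO, TA and WT, and 2070.4, 824 and 949.8 CPM in the light zone, where the median TA cell was thus below the median WT cell. No label names an animal, so each genotype is 1 sample in each zone. There is no replicate check and no test, and because this contrast chose the genes, these values are a description. Fewer expressing cells and less RNA per cell cannot be told apart in such sums.

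The plates did not all show the same order. On plates 1 to 4 the dark zone sums were 1795, 2636, 3168 and 3357 CPM in KO, 2714, 3022, 1971 and 2838 CPM in TA and 2124, 1654, 1896 and 1248 CPM in WT. KO lay below WT on plate 1 and above it on the other 3 plates, while TA lay above WT on all 4. Light zone sums were 2428, 4795, 2887 and 2065 CPM in KO, 821, 4382, 2942 and 705 CPM in TA, with 3 to 7 cells a plate, and 1267, 1377, 1185 and 2860.0 CPM in WT. Here KO lay above WT on plates 1 to 3, and TA on plates 2 and 3.

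More members were detected per cell in KO than in WT, as the plot of members per cell shows. After each cell was thinned to 20000 counts, KO, TA and WT dark zone cells had reads of 5.65, 4.49 and 3.71 members on average, and light zone cells of 6.62, 3.64 and 3.86. The medians were 5, 3 and 3 in the dark zone and 6, 2.5 and 3.5 in the light zone. The typical TA dark zone cell was thus like the WT one. At least 5 members were detected in 53.2, 42 and 33.8% of KO, TA and WT dark zone cells. The exact 95% binomial intervals, which cover counting error only, ran from 40.1 to 66.02% in KO, from 32.2 to 52.3% in TA and from 23.6 to 45.2% in WT. The light zone shares were 65.6, 27.3 and 38.9% in KO, TA and WT. Thinning left out 1 TA and 2 WT dark zone cells and 5 WT light zone cells, and without it the dark zone means were 6.81, 5.43 and 4.55 and the light zone means 8, 4.05 and 4.41. Without thinning, 67.7, 47.5 and 48.8% of KO, TA and WT dark zone cells had at least 5 members, so TA did not exceed WT. T cell genes averaged 1.02, 0.350 and 0.412 per thinned dark zone cell of KO, TA and WT. A few cells had most members on at once: before thinning, a KO light zone cell of plate 2 in G1 held 31 members and 21.4% of the member counts of its group, and 2 TA dark zone G1 cells of plate 2 held 24 and 21 members.

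**Figure D1:**
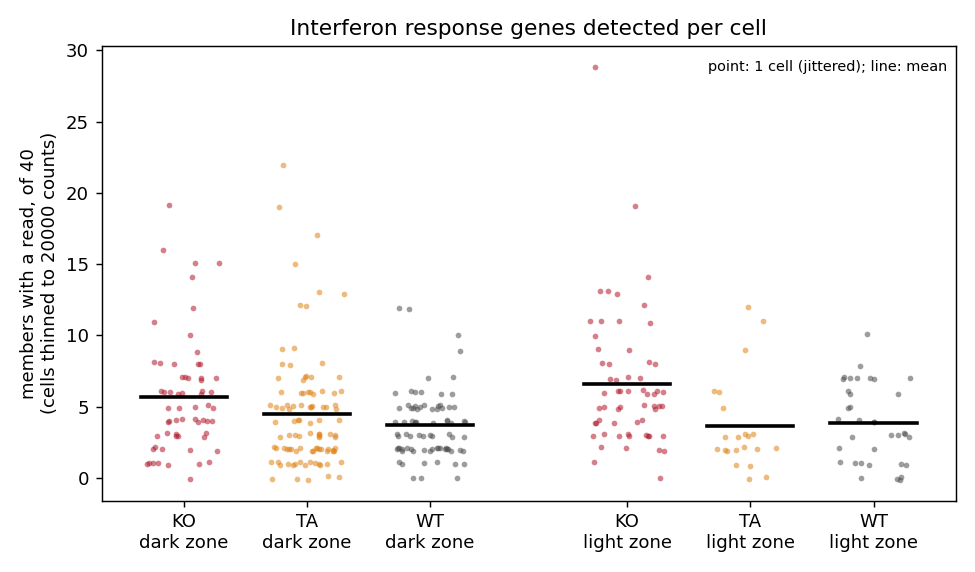
Members of the 40 interferon response genes with at least 1 read in each cell after thinning to 20000 counts; each point is 1 cell and each line a group mean. Mean lines stand at 5.65, 4.49 and 3.71 in KO, TA and WT dark zone cells and at 6.62, 3.64 and 3.86 in the light zone, and 1 KO light zone cell holds 29.

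Across the 40 members the log2 ratio of KO over WT had a median of 0.86 in the dark zone and 1.47 in the light zone, beside all-gene medians of -0.16 and -0.05. Ratios are of log2(CPM + 1), which understates the change of low genes. The ratio of TA over WT had a member median of 0.92 in the dark zone and 0.00 in the light zone, with -0.03 over all genes in each. For KO, 30 members were above 0 and 8 below in the dark zone, and 37 above and 3 below in the light zone. For TA the numbers were 32 above and 7 below in the dark zone but 15 above and 19 below in the light zone. With groups at 0 set to 3 counts over the group, the medians for KO were 1.00 in the dark and 1.47 in the light zone, and for TA 0.94 and -0.22. Both ratios of a zone share its WT cells.

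Many members differed by at least 2-fold, counted among genes at 20 CPM or more in either group. For KO in the dark zone 17 of the 32 members at that level were that much higher, beside 11.6% of all genes, and for TA 13 of 28, beside 8.12%. In the light zone the counts were 21 of 34 for KO, beside 18.3% of all genes, and 7 of 23 for TA, beside 19.1%. A member at that level only through its higher group had to differ, and the same contrast chose the genes, so nothing is read from these counts. Among members at that level, values were higher on all 4 plates for 9 of 32 in KO dark zone cells (7.14% of all genes). The numbers were 6 of 28 in TA dark zone cells (7.7%), 7 of 34 in KO light zone cells (11%) and 2 of 23 in TA light zone cells (2.47%). Without the cells that had 5 or more T cell genes (4 KO, 1 TA and 1 WT in the dark zone and 3 KO in the light zone), the member medians were 0.78 for KO and 0.72 for TA in the dark zone and 1.03 for KO in the light zone.

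**Figure D2:**
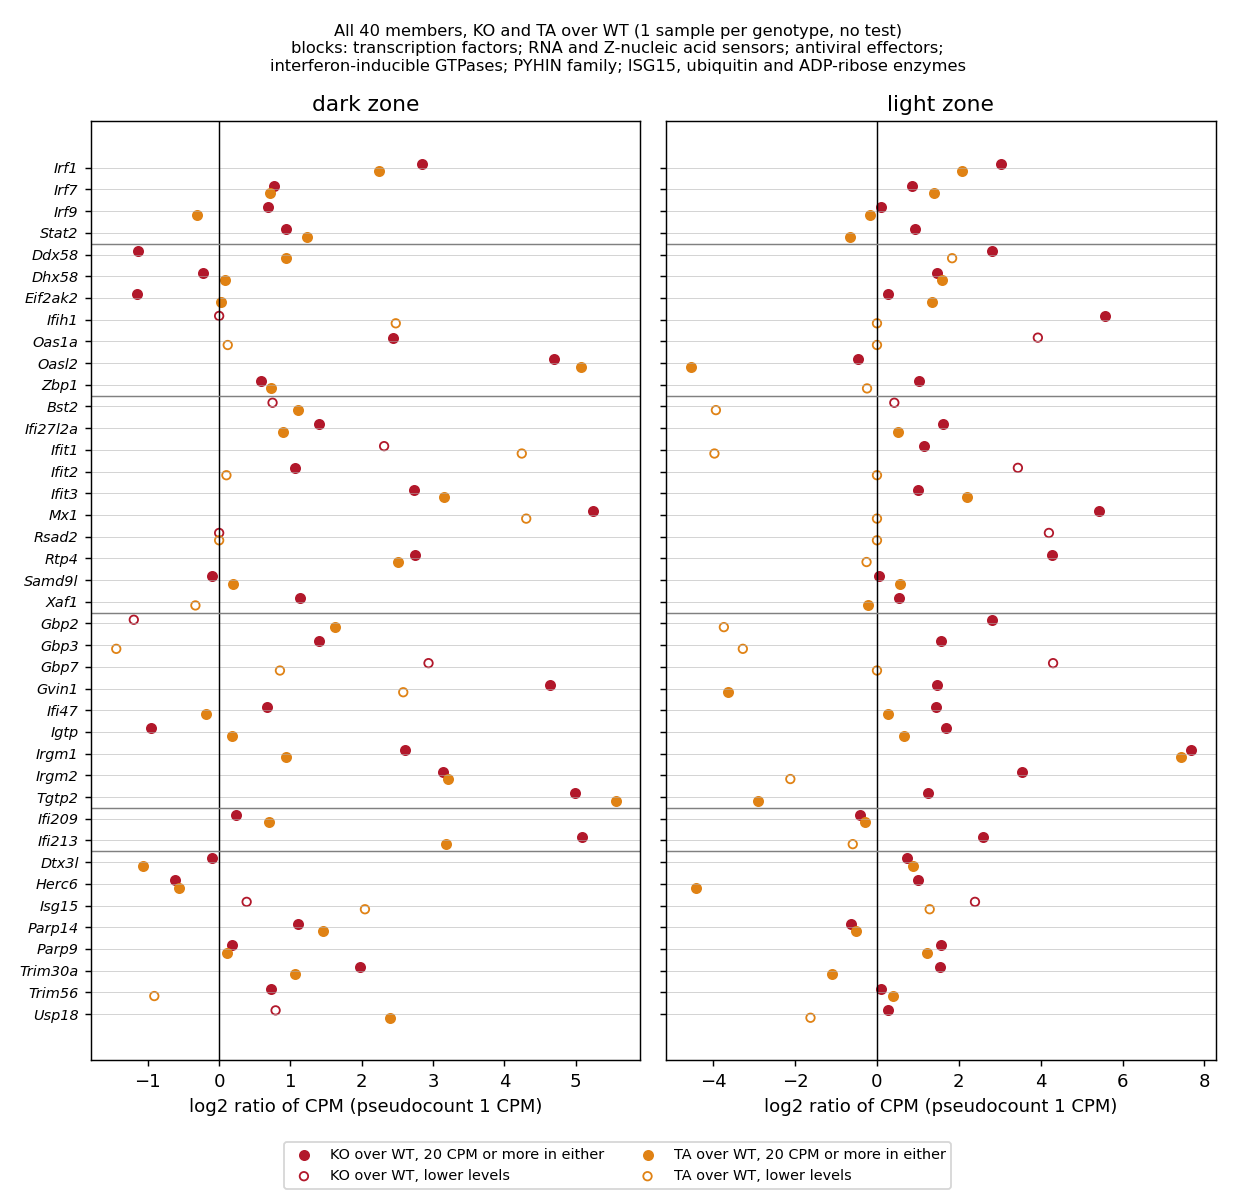
Log2 ratio of CPM (pseudocount 1 CPM) for all 40 members, KO over WT and TA over WT, in the dark zone and in the light zone, grouped by role; open points are members under 20 CPM in both groups, and where WT was at 0 the plotted ratio depends on the pseudocount. In the dark zone 30 KO and 32 TA points lie above 0, and in the light zone 37 KO and 15 TA points do.

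Among the transcription factors Irf1, an activator that interferon gamma induces strongly, stood out. It had 40.1 CPM in KO (exact Poisson 95% interval 36.2 to 44.4), 26.04 CPM in TA (23.8 to 28.5) and 4.73 CPM in WT (3.57 to 6.16) dark zone cells, with reads in 9, 11 and 3 cells. These and later such intervals treat reads as independent and do not cover the spread between cells or plates. Plates 1 to 4 held 17.4, 82.1, 19.6 and 52.3 CPM in KO, 8.44, 15.8, 61.3 and 22.95 CPM in TA, and 5.04, 12.9, 0 and 0 CPM in WT. All 4 KO values lay above all 4 WT values, while the TA and WT plates overlapped. Here and for later genes, the plates are technical parts of 1 sample per genotype and no replicates. The share of all genes with plates this separate is not given, and the same contrast chose the members. The light zone had 146.2, 75.2 and 17.02 CPM of Irf1 in KO, TA and WT, with no overlap between KO plates (62.5 to 187.04 CPM) and WT plates (0 to 26.7 CPM). Irf7, which amplifies type I interferon production, had 96.4, 91.9 and 55.9 CPM in KO, TA and WT dark zone cells and 65.4, 94.9 and 35.6 CPM in light zone cells. Irf9, the DNA-binding part of the type I complex, had 84.6, 41.9 and 52.2 CPM in KO, TA and WT dark zone cells and 56.1, 46.2 and 52.01 CPM in light zone cells, so TA did not exceed WT in either. Stat2, the partner of Irf9, had 31.6, 39.3 and 16.1 CPM in KO, TA and WT dark zone cells.

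The 9 interferon-inducible GTPases were all higher in KO than in WT light zone cells, where 37 of the 40 members were. They summed to 508, 353 and 232.4 CPM in KO, TA and WT dark zone cells, and to 954, 336.6 and 227.4 CPM in light zone cells. Ifi47, of the immunity-related (IRG) GTPase family, had 234.04, 129.5 and 146.8 CPM in KO, TA and WT dark zone cells and 241.9, 106.6 and 88.2 CPM in light zone cells. Its dark zone plates held 127.4, 167.6, 123.8 and 469.5 CPM in KO and 282.4, 157.4, 140.9 and 38.1 CPM in WT, which overlapped. Irgm1, an IRG protein that regulates the other GTPases and autophagy, had 82.1 CPM in KO (76.3 to 88.1), 25.2 CPM in TA (23.01 to 27.6) and 12.6 CPM in WT (10.7 to 14.9) dark zone cells. The light zone had 201.6 CPM in KO (12 cells with reads) and 172.5 CPM in TA (4 cells), against no count in the 41 WT cells. Every KO and TA light zone plate had Irgm1 counts, from 17.2 to 493 CPM in KO and from 27.3 to 683 CPM in TA. Igtp, a related IRG GTPase, was lower in KO in the dark zone, with 23.1, 52.1 and 45.7 CPM in KO, TA and WT, but had 105.1, 50.6 and 31.9 CPM in light zone cells, where 1 cell held 85.4% of the KO counts. Several GTPases were read in few cells. Tgtp2 had 36.1, 54.2 and 0.172 CPM in KO, TA and WT dark zone cells from 2, 5 and 2 cells, and Gvin1 had 74.2, 17.02 and 2.01 CPM from 7, 5 and 2 cells. Gbp2, a guanylate-binding protein, had 6.01, 48.4 and 15.1 CPM in KO, TA and WT dark zone cells, from 2 cells each. Gbp3, Gbp7 and Irgm2 lay between 0 and 49.2 CPM in the 6 groups. Reads of near-identical copies in the Gbp, IRG, Gvin, Ifit, Oas, Ifi27 and PYHIN families may be split among copies by the counting, so single members of these families are uncertain.

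Of the antiviral effectors, Ifi27l2a, a small membrane protein of the Ifi27 family, was detected in the most cells. It had 284.2 CPM in KO (273.5 to 295.3), 198.6 CPM in TA (192.2 to 205.1) and 106.6 CPM in WT (100.8 to 112.7) dark zone cells, with reads in 48, 72 and 44 cells. Plates 1 to 4 held 209.5, 328.2, 384 and 210.6 CPM in KO, 190.5, 187.3, 220.8 and 199.5 CPM in TA, and 138.9, 91.2, 118.3 and 87.7 CPM in WT. Neither the KO nor the TA plates overlapped with the WT plates, which is a description of 1 sample per genotype. Light zone cells had 190.5, 88.9 and 62.1 CPM in KO, TA and WT, and the KO plates (63.9 to 278.4 CPM) overlapped with the WT plates (21.7 to 99.2 CPM). Samd9l, which restricts poxviruses, hardly differed between KO and WT, with 95.1, 116.7 and 102.2 CPM in KO, TA and WT dark zone cells and 105.97, 149.8 and 101.9 CPM in light zone cells. Mx1, a dynamin-like inhibitor of influenza virus, had counts in 4 KO and 2 TA dark zone cells and in 4 KO light zone cells, and none in TA light zone cells or in WT cells of either zone. Its levels were 37.004 CPM in KO and 18.8 CPM in TA dark zone cells, and so few cells with reads give no measure of the size of the difference. Rsad2, the antiviral enzyme viperin, was read only in 4 KO light zone cells (17.4 CPM). Ifit3, of the RNA-binding Ifit family, had 60.6, 81.6 and 8.26 CPM in KO, TA and WT dark zone cells from 3, 4 and 1 cells. Ifit1, Ifit2, Bst2, Rtp4 and Xaf1 lay between 0 and 33.7 CPM in the 6 groups.

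The 7 RNA and Z-nucleic acid sensors were less uniform. They summed to 155.6, 226.7 and 137.3 CPM in KO, TA and WT dark zone cells, and to 248.2, 168.97 and 93.8 CPM in light zone cells. Ddx58, which encodes the RNA sensor RIG-I, had 12.3, 55.6 and 28.5 CPM in KO, TA and WT dark zone cells. Eif2ak2, the RNA-activated kinase PKR, had 15.3, 36.03 and 35.4 CPM there, and KO was the lowest group for both. Dhx58, a helicase that modulates RIG-I signalling, had 43.8, 54.7 and 51.5 CPM in KO, TA and WT dark zone cells. Oas1a, of the oligoadenylate synthetase family, had 25.4, 4.30 and 3.87 CPM, and its KO value was above WT on all 4 plates. Oasl2, Zbp1 and Ifih1 lay between 0 and 46.4 CPM in the 6 groups.

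Ifi209, a PYHIN family protein, was the member with the most counts, and its genotypes overlapped. It had 677 CPM in KO (661 to 694), 934 CPM in TA (919.8 to 948) and 574 CPM in WT (560.4 to 588) dark zone cells. Plates 1 to 4 held 543, 747, 717 and 695 CPM in KO, 1079.9, 961, 399 and 1203 CPM in TA, and 617, 659, 558 and 459.6 CPM in WT. Light zone cells had 459, 500.2 and 613 CPM in KO, TA and WT, so both KO and TA were below WT. Trim30a, a mouse ubiquitin ligase that restrains inflammatory signalling, had 201.4 CPM in KO (192.4 to 210.8), 106.7 CPM in TA (102.1 to 111.5) and 50.3 CPM in WT (46.3 to 54.6) dark zone cells. Its KO plates, at 202.7, 198.4, 275.5 and 126.2 CPM, all lay above the WT plates, at 72.9, 42.2, 22.9 and 72.7 CPM, while the TA plates (148.3, 18.9, 117.8 and 159.3 CPM) overlapped with WT. Light zone cells had 226.1, 35.3 and 76.9 CPM of Trim30a in KO, TA and WT, TA being the lowest. Parp9 and Dtx3l form an ADP-ribosyl and ubiquitin transferase complex. Parp9 had 145.4, 138.9 and 128.8 CPM in KO, TA and WT dark zone cells and 139.1, 109.4 and 45.98 CPM in light zone cells. Dtx3l had 79.3, 40.01 and 85.3 CPM in KO, TA and WT dark zone cells and 92.8, 104.2 and 55.7 CPM in light zone cells. Both were thus above WT in KO light zone cells and close to it in KO dark zone cells. Isg15 itself did not exceed 5.28 CPM in any group. Ifi213, Usp18, Herc6, Trim56 and Parp14 lay between 0 and 110.6 CPM.

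**Figure D3:**
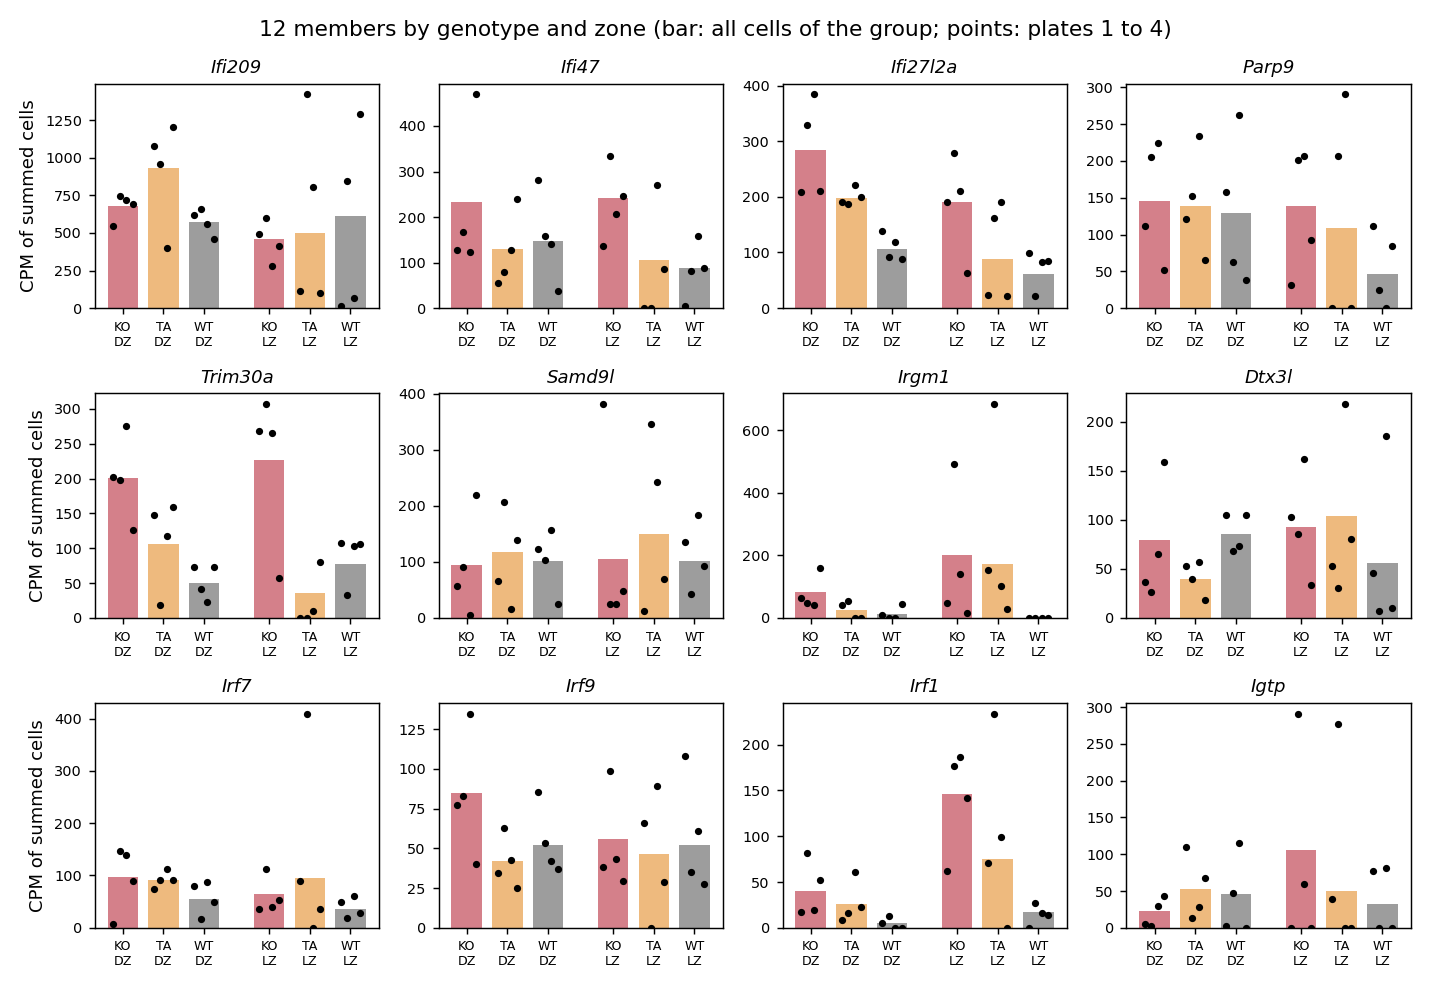
CPM of the 12 members with a mean of at least 50 CPM over the 6 groups; bars are all cells of a group summed and points are plates 1 to 4, with KO, TA and WT from left to right in each zone (DZ, dark zone; LZ, light zone). Ifi27l2a and Trim30a show KO dark zone plates above every WT plate, whereas the plates of Ifi209 overlap. Plates are technical parts of 1 sample per genotype.

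The cell cycle phase assigned by the authors differed between the genotypes, and member levels are therefore given by phase. G1 cells made up 77.4, 22.8 and 46.3% of KO, TA and WT dark zone cells. Within G1 the members summed to 2901, 4406 and 2103 CPM in KO (48 cells), TA (23 cells) and WT (38 cells) dark zone cells. Within S they summed to 3902, 2187 and 1435 CPM in KO (2 cells only), TA (46 cells) and WT (20 cells). Within G2M they summed to 2341, 2282 and 1394 CPM in KO, TA and WT (12, 32 and 24 cells). WT was the lowest of the dark zone groups in each phase by these sums. In the TA G1 sum, the 2 cells of plate 2 named above held 7.76 and 7.31% of all TA dark zone member counts. The median thinned G1 cell of the dark zone had reads of 4, 3 and 3 members in KO, TA and WT, so TA equalled WT there. The member medians of the log2 ratio were less uniform: KO over WT had 1.10 in G1, 0 in S and 0.36 in G2M, and TA over WT had 1.75 in G1, 0.11 in S and 0.70 in G2M. In S phase 20 members were above 0 and 15 below for TA.

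None of the 11 interferon ligand genes is among the genes of the genotype table. Of 19 receptor, kinase and regulator genes, 3 were at least 2-fold higher and 1 at least 2-fold lower in KO than in WT dark zone cells among the 16 at 20 CPM or more, beside 817 higher and 1122 lower of all 7054 genes at that level. Ifngr1, the ligand-binding chain of the interferon gamma receptor, was lower in KO and TA than in WT, with 87.3, 128.2 and 232.7 CPM in KO, TA and WT dark zone cells and 130.3, 156.1 and 293.7 CPM in light zone cells. Ifnar1 had 57.4, 32.005 and 60.5 CPM, and Jak1 352, 292.5 and 364 CPM, in KO, TA and WT dark zone cells. Of 94 other interferon-stimulated genes measured, 19 were at least 2-fold higher and 0 at least 2-fold lower in KO than in WT dark zone cells among the 67 at level, and 9 higher and 4 lower in TA among 62, where 11.6% and 8.12% of all genes were that much higher in KO and TA. Their median log2 ratios were 0.54 for KO and 0.20 for TA. In TA, 702 of all 6856 genes at level were at least 2-fold lower. In the light zone 31 were higher and 3 lower in KO among 71, but 7 higher and 13 lower in TA among 59, with medians of 0.95 and 0.00. Of all genes at level there, 1338 of 7325 were at least 2-fold higher and 1214 lower in KO. For TA, 1358 of 7119 were higher and 1675 lower. The 6 other interferon-stimulated genes highest by the KO ratio in the dark zone, at a mean of at least 50 CPM, were Ifi203, Mndal, Cd69, H2-Q7, Gbp9 and Lgals9. The PYHIN genes Ifi203 and Mndal had 174.1, 35.4 and 34.8 CPM and 123.7, 46.9 and 27.02 CPM in KO, TA and WT dark zone cells. H2-Q7, a class I histocompatibility gene, had 186.96, 86.4 and 69.98 CPM in KO, TA and WT dark zone cells.

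Whether the members differ between zones could be tested in Dec+ cells of experiments 3 and 4. The rule that chose the genes did not use this contrast, but earlier results of it were known. Cells were summed by experiment, time and zone, and 7 pairs of dark and light zone sums of at least 10 cells each entered a paired edgeR quasi-likelihood fit over 9302 genes. The labels name no animals, so its p-values measure only the spread between these sums. The authors' flags marked 97 Dec+ cells of experiments 3 and 4 for both zones, and these cells were kept in the dark zone sums. Without them the 30 and 46 h dark zone sums of experiment 4 would hold 40 and 38 cells instead of 67 and 54. The members summed to 1261 ± 678 CPM in dark zone sums and 992 ± 364 CPM in light zone sums (SD, n = 7 sums each), with the dark zone higher in 5 of 7 pairs. Without the 46 h pair of experiment 4 the order of the means turned, to 1034 ± 346 CPM in dark zone sums and 1049 ± 363 CPM in light zone sums (SD, n = 6 each). Of the 33 members tested, 26 had a log2 ratio above 0, and the median was 0.64, beside 0.20 over all genes tested. That median was 0.43 without the 46 h pair, 0.32 without the pairing, 1.07 without experiment 3 and 0.11 without experiment 4. Ifi213, Gbp7, Ifit1, Ifit3, Rsad2, Mx1 and Rtp4 were too low, or listed at 0, in these sums and were not tested.

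Ifi209 was the one member called, higher in the dark zone, where 0.366% of all genes were called. Its dark zone sums held 79.5, 59.7, 75.5 and 104.3 CPM in experiment 3 at 12, 30, 46 and 60 h and 350.1, 340.1 and 519 CPM in experiment 4 at 12, 30 and 46 h. The paired light zone sums held 27.9, 26.96, 26.03 and 40.4 CPM in experiment 3 and 234.2, 85.2 and 115.3 CPM in experiment 4. The dark zone was higher in 7 of 7 pairs, although levels in experiment 4 exceeded those in experiment 3 so that the ranges overlap. The means were 218.3 ± 182.7 CPM in dark zone sums and 79.5 ± 76.5 CPM in light zone sums (SD, n = 7 each), and the log2 ratio was 1.48 ± 0.21 (SE) with an edgeR adjusted p of 0.0126. Without the 46 h pair of experiment 4 the adjusted p of the edgeR fit was 0.0628 and the log2 ratio 1.36. Leaving out experiment 3 or experiment 4 gave adjusted p-values of 0.778 and 0.696 with log2 ratios of 1.58 and 1.37, and the fit without pairing gave 0.642.

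At an unadjusted p under 0.05, 3 members differed, beside 9.35% of all genes: Ifi209, Ifi27l2a and Ddx58. Ifi27l2a had 135.4 ± 86.5 CPM in dark zone sums and 68.2 ± 35.6 CPM in light zone sums (SD, n = 7 each), higher in 6 of 7 pairs, with a log2 ratio of 0.88 ± 0.26 and an edgeR adjusted p of 0.241. DESeq2 called 2 members, Ifi209 and Ddx58, beside 5.07% of all genes. Ifi47 leaned to the light zone, with 89.8 ± 68.1 CPM in dark zone sums and 163.03 ± 100.3 CPM in light zone sums, lower in the dark zone in 5 of 7 pairs, with a log2 ratio of -0.97 ± 0.49 and an edgeR adjusted p of 0.580. Of the 72 other interferon-stimulated genes tested, 1 was called: Ifi30, a lysosomal reductase of antigen processing, was lower in the dark zone with a log2 ratio of -1.11 ± 0.19 and an edgeR adjusted p of 0.0343. In the genotype experiment the untested median log2 ratio of dark over light zone was -0.22 in KO, 0.91 in TA and 0.00 in WT.

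**Figure D4:**
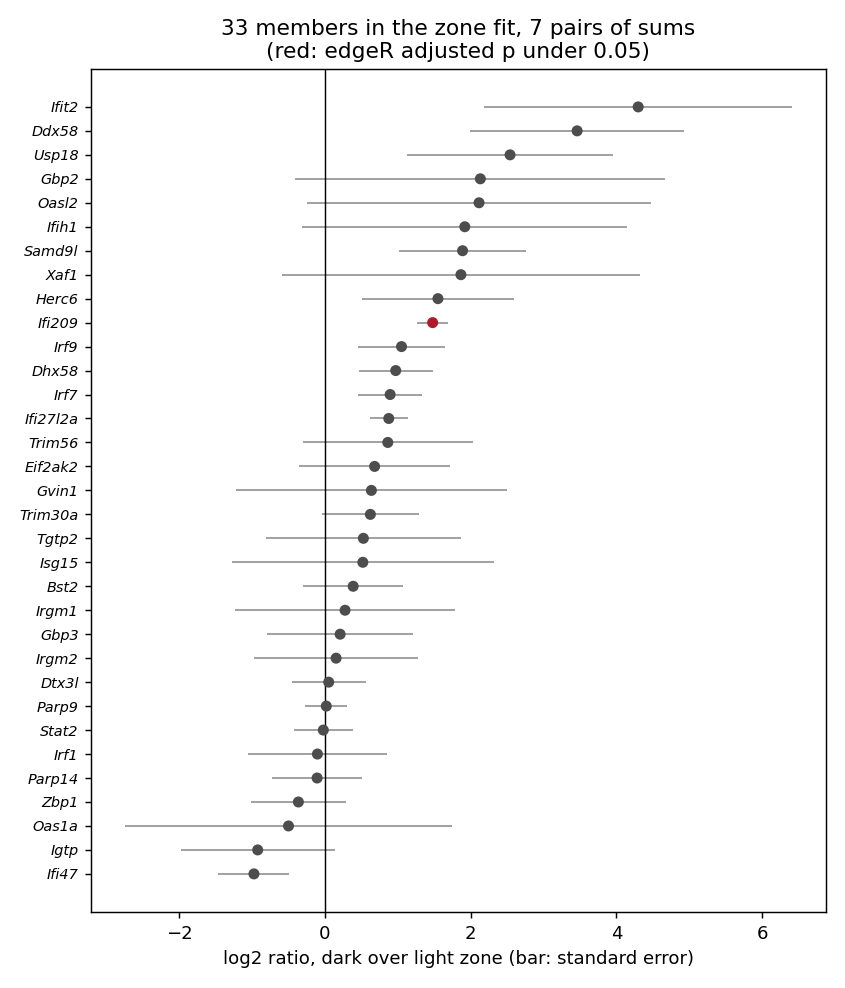
Log2 ratio of dark over light zone with its standard error for the 33 members in the paired edgeR fit of 7 pairs of sums; red marks an adjusted p under 0.05. Of the 33 points 26 lie above 0, and that of Ifi209, at 1.48 ± 0.21, is the red one.

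One dark zone sum carried a far higher response than the others. The median log2 ratio over the 40 members lay between 0 and 0.43 in 6 of the 7 pairs, and was 2.36 in the 46 h pair of experiment 4, with 34 members higher and 2 lower in the dark zone. That dark zone sum of 54 cells held 2621 CPM of member counts, against 1595, 1256 and 1196 CPM at 12, 30 and 60 h in the same experiment, 597 CPM in the 46 h dark zone sum of experiment 3 and 651 CPM in its own light zone sum. It had the highest value of the 4 dark zone sums of experiment 4 for 27 of 40 members, and for 24 of the 32 members at 20 CPM or more in 1 of these sums, beside 23.8% of all genes at that level. A gene at that level only through the 46 h sum, such as Usp18, Rtp4 or Ifi213, had to be highest there. The count among the 32 is therefore a description. In experiment 3 the 46 h sum was the highest of 4 for 2 of 40 members, and for 0 of the 19 at 20 CPM or more, beside 23.02% of all genes. Rtp4, an interferon-induced receptor transporter protein, had 63.1 CPM in it, against 2.49, 0.537 and 0 CPM at 12, 30 and 60 h. Usp18, the protease that removes Isg15, had 69.5 CPM, against 5.79, 16.9 and 6.22 CPM. Member counts reached 4393, 2551, 1874 and 1965 CPM on its plates A, B, C and D, and the 15 cells of plate A had reads of 13 members at the median, so the level differed between plates too. T cell markers summed to 78.2 CPM in it, the lowest of the 4 dark zone sums of experiment 4, and none of the 11 interferon ligand genes had a count in any sum. The combined counts also list a few rarely read members at 0 where the counts per experiment hold some, so the ligand zeros are uncertain. The part of the plate in the member level of the 46 h sum was not tested.

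Change over time was tested in 1 edgeR fit of 17 sums with experiment as a block, over 11661 genes of which 37 were members. In dark zone sums the members held 1236 ± 507 CPM at 12 h (n = 2 sums), 1061 ± 168.4 CPM at 30 h (n = 3), 1609 ± 1431 CPM at 46 h (n = 2) and 1059 ± 193.6 CPM at 60 h (n = 2), each as mean and SD. In light zone sums they held 993 ± 508 CPM at 12 h (n = 3), 928 ± 117.1 CPM at 30 h (n = 2), 1022 ± 525 CPM at 46 h (n = 2) and 879 CPM at 60 h, where there was 1 sum. No difference between the means of 2 times exceeded the larger of their SDs. In the dark zone experiment 4 lay above experiment 3 at each time.

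**Figure D5:**
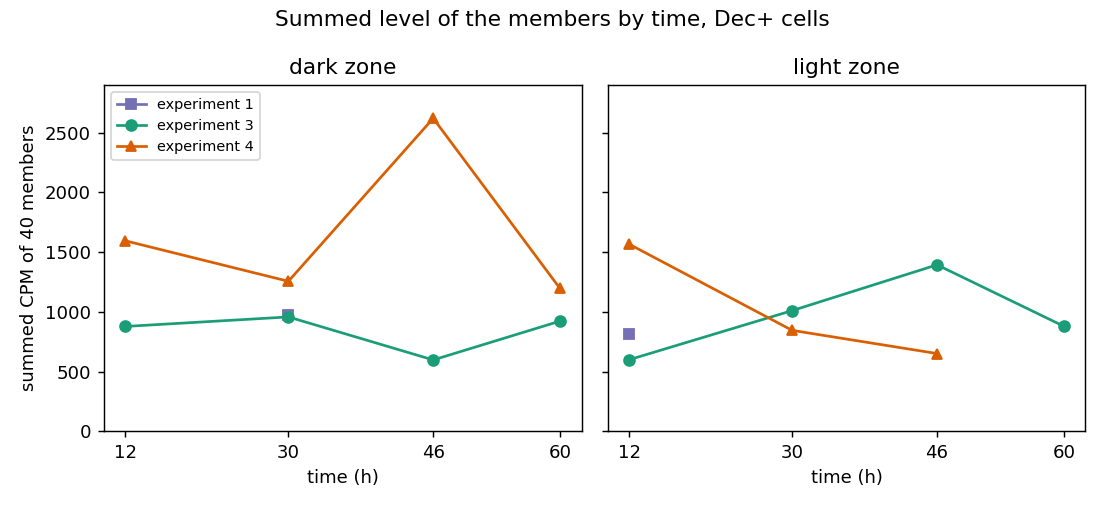
Summed CPM of the 40 members in Dec+ cells by time (h), in the dark zone and in the light zone; each point is 1 sum of cells of experiment 1, 3 or 4. The 46 h dark zone sum of experiment 4 stands at 2621 CPM, above every other dark zone sum.

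No member passed an edgeR adjusted p of 0.05 at any time against 12 h. The 60 h light zone arm was 1 sum, so its tests assume that it varies like the other groups. The share of all genes called was 0% at 30, 46 and 60 h in the dark zone, and 0%, 0.446% and 0.12% at these times in the light zone. At an unadjusted p under 0.05 there were 1, 2 and 1 members at 30, 46 and 60 h in the dark zone, beside 2.31%, 4.38% and 1.68% of all genes, and 3, 3 and 1 in the light zone, beside 3.47%, 11.4% and 7.06%. DESeq2 called 1, 1 and 1 member in the dark zone, beside 0.54%, 0.971% and 0.686% of all genes, and 2, 5 and 3 in the light zone, beside 1.54%, 9.58% and 5.34%. The dark zone call was Oas1a each time, which had no count in either 12 h sum and 17.6 ± 3.87 CPM at 30 h (SD, n = 3 sums). The light zone calls of DESeq2 were Herc6 and Xaf1 at 30 h, and Gbp3, Ifit2, Trim56, Ifih1 and Samd9l at 46 h. Xaf1 had no light zone count at 30 h, and Ifit2 and Ifih1 had none at 46 h. Samd9l had the lowest edgeR adjusted p of the members, 0.132 for 46 h over 12 h in the light zone, with a log2 ratio of -4.22 ± 1.19 (SE). Its light zone sums held 79.3 ± 101.5 CPM at 12 h (SD, n = 3 sums), against 3.44 and 0.974 CPM at 46 h in experiments 3 and 4, each from 1 cell.

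Dec status was compared in light zone cells of 12 h of experiment 1, where 1 experiment holds both groups and no test can be made. Plates GC1, GC2 and GC3 held 58, 56 and 52 Dec+ cells and 26, 28 and 26 Dec- cells. The members summed to 815 CPM in Dec+ cells and 761 CPM in Dec- cells, and the member median log2 ratio was 0.21, beside 0.07 over all genes. On the 3 plates the sums were 594, 982 and 980.3 CPM in Dec+ cells and 811, 648 and 904 CPM in Dec- cells, so Dec+ was lower on GC1 and higher on the others. Of the 16 members at 20 CPM or more, 5 were at least 2-fold higher in Dec+ cells, beside 17.7% of all genes, and 3 at least 2-fold lower. Of all 6440 genes at that level, 859 were at least 2-fold lower. All 9 GTPases were higher in Dec+ cells, at 272.6 CPM summed against 76.95 CPM in Dec- cells. Among them Ifi47 had 102.7 CPM in Dec+ and 33.4 CPM in Dec- cells, Irgm1 51.5 CPM and 1.35 CPM, and Gbp2 21.3 CPM and no count. Irf1 had 93.97 CPM in Dec+ and 54.98 CPM in Dec- cells. Other members were lower in Dec+ cells. Ifi209 had 111.3 CPM in Dec+ and 184.5 CPM in Dec- cells, and Herc6, the mouse ligase that attaches Isg15, had 10.9 CPM and 78.6 CPM.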

How the data were processed

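Libraries were aligned and counted with STAR 2.6 and RSEM 1.3.1 on mm10 and processed with Seurat 3.1.4, per the submitters' processing notes. The authors deposited expected counts per gene and cell, which were rounded to whole numbers for the fits. Their deposited cell tables gave the percent of mitochondrial counts, the phase and, as a score, flags for the zone. Of the 1220 columns of cells, 965 matched a labelled sample, and the other 255 were not used, so experiment 2 is not analysed here. Kept cells numbered 1338. The combined table lists Ifit1 at 0 in experiments 3 and 4, Ifit3 and Rtp4 in experiment 3 and Rsad2 in experiment 4, where the tables per experiment hold some counts. Dark zone cells of experiment 1 are labelled 30 h, while another column of the authors gives a later hour.

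Counts were summed over cells and scaled to CPM of all counts of a sum, with a pseudocount of 1 CPM for ratios. Zone and time used edgeR 4.0.16 (TMM, robust quasi-likelihood, Benjamini-Hochberg adjustment over all genes) in R 4.3.3, with DESeq2 1.42.0 as an alternative. The zone fit kept experiment and time as a pairing block, because the protocol in the labels puts all conditions of a replicate on each plate. Tested on simulated data, the zone fit recovered 22, 41, 47 and 50 of 50 genes changed 2-, 4-, 8- and 16-fold, with 9092 genes and 5 false calls. The time fit, with 30 h over 12 h changed in the dark zone, recovered 1, 16, 34 and 45 of 50, with 11410 genes and 3 false calls. In both, the changed genes lay above the median level of the genes fitted, and no difference between experiments was simulated. The recovery of members at lower levels was thus not measured.

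Intervals are exact Poisson or binomial intervals at 95% and cover counting error only, since reads carry no molecular identifiers. Members with a mean of at least 50 CPM over the 6 genotype sums get their values in every genotype group. The member called in the main edgeR fits also gets its paired zone sums. The other members, also those called by DESeq2 alone, get ranges or may be named. Of other lists, receptor and kinase genes, called genes and the 6 other interferon-stimulated genes with the highest KO over WT ratio could be named. Members and lists were chosen with earlier results of these data known. Alternatives were another tool, size factors, filters, thinning, blocks, and leaving out plates, experiments or cells.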

Additional observations from a re-analysis of the deposited data

Results flagged for a closer look

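Among 26 sets of 7 sums, each set being 1 member in 1 zone across the sums of the zone fit, 5 had a highest sum far from the rest by Dixon's criterion, which chance meets in about 1 in 20 groups. Both dark zone cases were in the 46 h sum of experiment 4. Ifi47 had 233.7 CPM there, and the next highest dark zone sum had 99.6 CPM. Igtp had 76.1 CPM there, and the next had 28.4 CPM. The 3 light zone cases lay in other sums. Ifi209 had 234.2 CPM in the 12 h sum of experiment 4, next to 115.3 CPM. Irgm1 had 115.97 CPM and Trim30a 210.1 CPM in the 46 h sum of experiment 3, next to 20.9 CPM and 68.2 CPM. That sum held 11 cells, and 1 cell carried 47.2% of its member counts. The part of single cells and plates in these values was not tested further.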

How the results depend on the processing

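Of the recomputed main results, 38 values moved beyond the set limits. Members called in the zone fit numbered 1 in the paired fit, 2 with DESeq2 and 0 without the replicate block. It was also 0 when sums needed 20 cells or more, without the 46 h pair of experiment 4, and when either experiment was left out. All genes called were 34, and 0 to 3 when an experiment was left out. Time calls were 1, 1, 1, 2, 5 and 3 with DESeq2 against 0 with edgeR, 1 at 60 h in the light zone with sums of at least 20 cells, and 0 to 1 at 46 h when an experiment was left out. With a level of 50 CPM the members at least 2-fold higher were 6 for KO and 4 for TA in the dark zone and 12 for KO in the light zone. In G1 cells alone TA had 22 in the dark zone, with a median of 1.75, and 12 in the light zone. The TA median over both zones together was 0.71. When 1 plate was left out, the counts ran from 12 to 19 for KO and from 8 to 16 for TA in the dark zone, and from 11 to 26 for KO and from 4 to 10 for TA in the light zone. The medians ran from 0.58 to 1.25, from 0.35 to 1.04, from 0.52 to 2.14 and from -0.21 to 0.33 in the same order, so the TA light zone median, 0.00 with all plates, took both signs. For Dec+ over Dec- the count was 12 with no level filter, 3 at 50 CPM, 3 without the top cell of each group and 4 to 9 without 1 plate, and the median was 0 as a mean over cells and 0.0013 to 0.15 without 1 plate. Mean members per cell at 50000 counts and without thinning were 5.09 and 5.43 in TA and 4.18 and 4.55 in WT dark zone cells, and 8 without thinning in KO light zone cells. The cause of these shifts was not tested. Genotype and Dec groups of 1 sample, and few cells per sum, limit all values.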

Other observations

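Other interferon-stimulated genes were also high in the 46 h dark zone sum of experiment 4. Of the list of such genes outside the 40 members, 45 (41.3%) had their highest value of the 4 dark zone sums there, beside 23.8% of all genes at 20 CPM or more, while in experiment 3 the 46 h sum was the highest for 10 of the same list. The list was counted at any level, unlike that share of all genes. Cells sorted to neither zone were in no comparison. The 1 KO cell among them had 2624 CPM of member counts, and the 3 WT cells together had 2333 CPM.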
